A study of Mus musculus with 10 samples.

Results

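The subunits of the respiratory chain and of ATP synthase that are encoded in the nucleus were compared between control and Stat5Adipoq brown adipose tissue (BAT) of mice. Members were chosen by gene name alone: symbols that begin with Ndufa, Ndufb, Ndufc, Ndufs or Ndufv, with Uqcr, with Cox4 to Cox8, or with Atp5, and Cyc1 and Cycs. Assembly factors were left out only where their symbols begin with Ndufaf. This rule found 78 of the 13568 genes tested, namely 37 of complex I, 9 of complex III, 16 of complex IV, 15 of complex V and cytochrome c. Every member had passed the filter on low counts, because the gene table to which the names were applied holds only genes that passed it. A few names do not stand for core subunits: Ndufa4, counted with complex I by its name, is now assigned to complex IV. Ndufa4l2, Cox7a2l, Atp5s and Atp5sl encode related or later renamed proteins, and each was counted with the complex of its name.

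RNA was sequenced from BAT of male mice of the strain C57BL/6N, 2 months of age, fed a standard diet ad libitum and not stimulated, with 1 library per mouse and 5 mice per genotype. In Stat5Adipoq mice Stat5a and Stat5b are deleted by a Cre recombinase under the Adipoq promoter, which is active in adipocytes of all depots, so other cells of the tissue keep both genes. Controls were littermates with floxed Stat5 and without Cre according to the methods, while the labels name them wild type. The libraries held 8488129 to 19514904 counts in control and 9401827 to 15686868 in Stat5Adipoq BAT, and values are given as CPM, counts scaled to library size with the TMM factors of edgeR. Stat5a ranged from 86.9 to 130 CPM in control and from 15.8 to 20.7 CPM in Stat5Adipoq libraries (log2 fold change -2.62), and Stat5b from 76.6 to 91.9 and from 21.0 to 22.9 CPM (log2 fold change -1.94), in accord with the labels. The brown adipocyte marker Ucp1 lay between 5402 and 13831 CPM in control and between 7843 and 12660 CPM in Stat5Adipoq libraries. Skeletal muscle markers stood apart in a pair of control libraries: control replicate 3 held 5425 CPM and control replicate 5 held 491 CPM summed over 15 markers, while the remaining control libraries held 41.8 to 120 CPM and the Stat5Adipoq libraries 51.1 to 113 CPM. In bulk tissue, fewer cells of a type and less RNA per cell cannot be told apart.

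The respiratory chain passes electrons from NADH and succinate to oxygen and pumps protons out of the mitochondrial matrix. ATP synthase (complex V) lets protons return and makes ATP, and in brown adipocytes uncoupling protein 1 lets them return without ATP synthesis, so that the energy is released as heat. BAT is rich in respiratory chain and comparatively poor in ATP synthase, which is limited in this tissue by the c subunit of its membrane ring. Complexes I, III, IV and V also hold subunits encoded in mitochondrial DNA, which were not analysed here.

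Atp5b, Ndufa10 and Cox7a1, a subunit each of complexes V, I and IV, rose in Stat5Adipoq BAT by 15.7 to 22.5%, and no member fell at an adjusted p under 0.05. The other 75 members were not called, and for most of them the confidence limits leave room for small changes only. The 3 called members are 3.85% of the 78, where 2.71% of all tested genes were called by the same test (edgeR's quasi-likelihood test, Benjamini-Hochberg adjustment over 13568 genes). Calls in the upward direction alone were made for 1.4% of tested genes, and in the downward direction for 1.31%.

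Atp5b encodes the β subunit of the F1 head of ATP synthase, which carries the catalytic sites. It was at 6558, 6539, 6819, 6727 and 6595 CPM in the 5 control libraries and at 7222, 7654, 7941, 8210 and 7919 CPM in the 5 Stat5Adipoq libraries. All Stat5Adipoq libraries lay above all control libraries, and the spread within control was small (SD 121 CPM, against 373 CPM in Stat5Adipoq). The log2 fold change was 0.23 (standard error 0.05, edgeR adjusted p = 0.032). Atp5a1, the α subunit that alternates with β in the same head, was at 4782 ± 108 CPM in control and 4946 ± 93.6 CPM in Stat5Adipoq BAT (SD, n = 5), with overlapping libraries and an edgeR adjusted p of 0.69.

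Ndufa10 encodes an accessory subunit of the membrane arm of complex I. Its level was 731.7, 752.8, 724.3, 748.7 and 755.7 CPM in control and 808.4, 909.9, 859.4, 846.3 and 872.9 CPM in Stat5Adipoq libraries. The groups did not overlap, and the lowest Stat5Adipoq library, replicate 1, was also the lowest for Atp5b. The log2 fold change was 0.21 (standard error 0.05, edgeR adjusted p = 0.036).

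Cox7a1 encodes the form of subunit 7a of cytochrome c oxidase that is found in heart, skeletal muscle and brown fat. It was at 373.9, 386.8, 416.2, 387.8 and 373.8 CPM in control and at 424.0, 436.9, 532.1, 487.6 and 494.5 CPM in Stat5Adipoq libraries. The groups did not overlap, although the highest control library, replicate 3, which also held the most muscle RNA, lay just below the lowest Stat5Adipoq library. The log2 fold change was 0.29 (standard error 0.07, edgeR adjusted p = 0.040), and 0.32 without control replicate 3.

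By edgeR these calls lie close to the threshold. The DESeq2 Wald test gave adjusted p values of 4.2e-05 for Atp5b, 5.4e-05 for Ndufa10 and 0.0025 for Cox7a1. It called 4.86% of all tested genes, against 2.71% by edgeR. Scaled by library size only, Ndufa10 was not called (edgeR adjusted p = 0.063), while Atp5b and Cox7a1 were. With 1 library left out at a time, Atp5b and Ndufa10 passed in 2 of 10 fits each (without control replicate 3 and without Stat5Adipoq replicate 1) and Cox7a1 in 3 of 10 (also without Stat5Adipoq replicate 2), with 0 members called in 7 of the 10 fits. With a skeletal muscle score as a covariate, or without control replicates 3 and 5, which held the most muscle RNA, 0 members were called at fold changes of nearly the same size (edgeR adjusted p from 0.066 to 0.14), while 254 and 339 of all genes were.

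**Figure D1:**
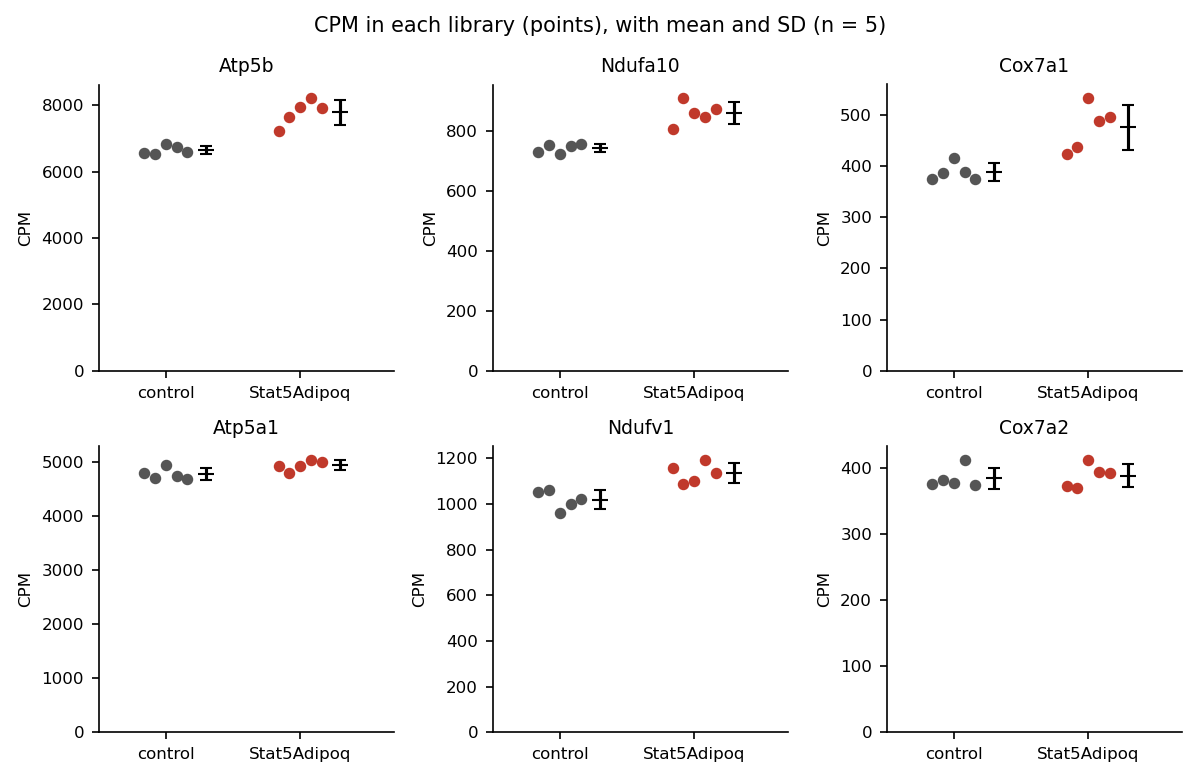
CPM (y axis, from 0) of 6 subunits in the 5 control (grey) and 5 Stat5Adipoq (red) libraries, with the mean and SD of each group as a bar to the right of its points. Atp5b, Ndufa10, Cox7a1 and Ndufv1 do not overlap between genotypes, whereas Atp5a1 and Cox7a2, the partners of Atp5b and Cox7a1, do.

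The promoters of the 3 called genes are shown because these genes moved the same way. On GRCm38, Atp5b lies at chr10:128083307-128090388, Ndufa10 at chr1:92439486-92473825 and Cox7a1 at chr7:30184171-30186030. RefSeq gives promoter windows of 300 bases on GRCm38.p6, from 250 bases before to 50 after the start site, for 64 of the 78 members, and the sequences below are the part of each window before any annotated exon, 5′ to 3′ on the strand of the gene. Capitals mark CCAAT boxes (CCAAT, or ATTGG on the other strand) and GC boxes (GGGCGG or CCGCCC).
Atp5b, chr10:128083057-128083272, plus strand: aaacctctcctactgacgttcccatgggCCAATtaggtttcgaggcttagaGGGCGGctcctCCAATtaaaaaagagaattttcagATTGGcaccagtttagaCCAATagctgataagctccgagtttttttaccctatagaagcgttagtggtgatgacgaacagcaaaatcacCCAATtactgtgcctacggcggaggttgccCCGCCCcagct
Ndufa10, chr1:92473861-92474008, minus strand: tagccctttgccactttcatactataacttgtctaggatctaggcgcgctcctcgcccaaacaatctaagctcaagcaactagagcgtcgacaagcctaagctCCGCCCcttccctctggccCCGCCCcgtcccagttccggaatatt
Cox7a1, chr7:30183921-30184143, plus strand: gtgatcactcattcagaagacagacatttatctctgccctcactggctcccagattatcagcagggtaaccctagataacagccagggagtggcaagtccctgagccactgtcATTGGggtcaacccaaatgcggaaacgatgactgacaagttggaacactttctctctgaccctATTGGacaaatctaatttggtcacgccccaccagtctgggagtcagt

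The 3 promoters differ in these boxes: the stretch of Atp5b holds both kinds, that of Ndufa10 GC boxes and that of Cox7a1 CCAAT boxes. The window of Ndufa10 also holds a cAMP response element, TGACGTCA, in the 30 bases at chr1:92473807-92473836 (minus strand), shown with the element in capitals as acactcagtggTGACGTCAtggcagcgcgc. This element lies past the end of the printed stretch, where annotated exon begins, and inside the gene coordinates given above. It stands 67 bases before the start site of the window. Over the 64 windows, searched on both strands, 40.6% of members held GGGCGG, against 67.5% of the 10756 windows of tested genes, and 43.8% against 42.3% held CCAAT.
Letters bound by factors known for nuclear genes of mitochondria were found in 20.3% of members for NRF-1 against 11.03% of all windows, in 12.5% against 3.39% for YY1 (AAGATGGCG), in 21.9% against 19.2% for the ETS factor GABP (CCGGAAG), and in 7.81% against 3.43% for the cAMP response element. TTCNNNGAA, the letters of a STAT5 site, stood in 5 of 64 members (7.81%) and in 8.23% of all windows. A match of letters is a description of the window, with no measure of binding, and some motifs overlap the exon.

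Complex I takes electrons from NADH and hands them to ubiquinone, and its core subunits encoded in the nucleus carry the flavin and the iron-sulfur clusters. Of the 37 complex I genes, 11 had a log2 fold change above 0 and 26 below, the median was -0.05, and all but Ndufa10 lay within 0.2 of 0. Each of the 37 had 95% confidence limits inside -0.5 and 0.5.

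Ndufv1, which holds the site where NADH is oxidised, was at 1051, 1060, 960, 1000 and 1022 CPM in control and at 1159, 1086, 1102, 1194 and 1137 CPM in Stat5Adipoq libraries. All Stat5Adipoq libraries were above all control libraries, by a log2 fold change of 0.16 (standard error 0.05), but the edgeR adjusted p was 0.14. DESeq2 gave an adjusted p of 0.019 for Ndufv1 and called 4 members in all (5.13%), these 4 being the 3 above and Ndufv1, where it called 4.86% of tested genes, and 2.4% as higher. Ndufs1, the largest core subunit, reached 840 ± 46.5 CPM in control and 926 ± 44.3 CPM in Stat5Adipoq BAT (SD, n = 5; log2 fold change 0.14, edgeR adjusted p = 0.24).
For 4 core subunits the log2 fold change was slightly below 0, and none of them was called. Ndufv2, partner of Ndufv1 in the arm that takes up electrons, was at 566 ± 31.5 CPM in control and 530 ± 58.6 CPM in Stat5Adipoq BAT, and Ndufs3, Ndufs7 and Ndufs8, which lie in the arm that leads to ubiquinone, had log2 fold changes of -0.07, -0.08 and -0.06.

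Among small accessory subunits of complex I several values pointed the other way. Ndufb3 was at 171, 165, 165, 167 and 154 CPM in control and at 157, 156, 138, 142 and 147 CPM in Stat5Adipoq libraries, which overlap through the lowest control library. Its log2 fold change was -0.15 (edgeR adjusted p = 0.20). Ndufa2 was 154 ± 4.76 CPM in control and 141 ± 5.48 CPM in Stat5Adipoq BAT (SD, n = 5), with every Stat5Adipoq library below every control library and an edgeR adjusted p of 0.25. The lowest log2 fold change of complex I was that of Ndufc2 at -0.17, with 236 ± 20.2 CPM in control and 209 ± 20.7 CPM in Stat5Adipoq BAT (SD, n = 5). Ndufab1, the mitochondrial acyl carrier protein, which also serves fatty acid synthesis in mitochondria, was at 27.2 ± 3.12 and 30.8 ± 1.54 CPM (SD, n = 5; log2 fold change 0.18).

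Complex III, the cytochrome bc1 complex, passes electrons from ubiquinol to cytochrome c. None of its 9 genes was called; 2 lay above 0 and 7 below, with a median of -0.05. The most abundant by CPM, the core protein Uqcrc1, was at 1739 ± 89.2 CPM in control and 1806 ± 80.1 CPM in Stat5Adipoq BAT (SD, n = 5; edgeR adjusted p = 0.71). Uqcrfs1, the Rieske iron-sulfur protein, was at 965 ± 74.3 and 902 ± 45.6 CPM (SD, n = 5; edgeR adjusted p = 0.51), and Uqcrb, a small subunit, at 150 ± 11.8 and 137 ± 15.6 CPM (SD, n = 5; edgeR adjusted p = 0.50).

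Cyc1, the haem-bearing cytochrome c1, was at 1280 ± 32.6 CPM in control and 1245 ± 29.2 CPM in Stat5Adipoq BAT, and the second core protein Uqcrc2 at 1593 ± 86.8 and 1673 ± 58.4 CPM (SD, n = 5). Both core proteins were above 0 and the other 7 genes below.
The lowest p of complex III was that of Uqcr10, a small subunit. It was at 441, 460, 478, 487 and 436 CPM in control and at 398, 388, 425, 441 and 422 CPM in Stat5Adipoq libraries. The groups overlapped at 1 Stat5Adipoq library, replicate 4, and the log2 fold change was -0.15 (edgeR adjusted p = 0.21). Cycs, cytochrome c itself, was at 31.1 ± 5.76 CPM in control and 33.7 ± 5.08 CPM in Stat5Adipoq BAT (SD, n = 5), a log2 fold change of 0.12 with an edgeR adjusted p of 0.75.

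**Figure D2:**
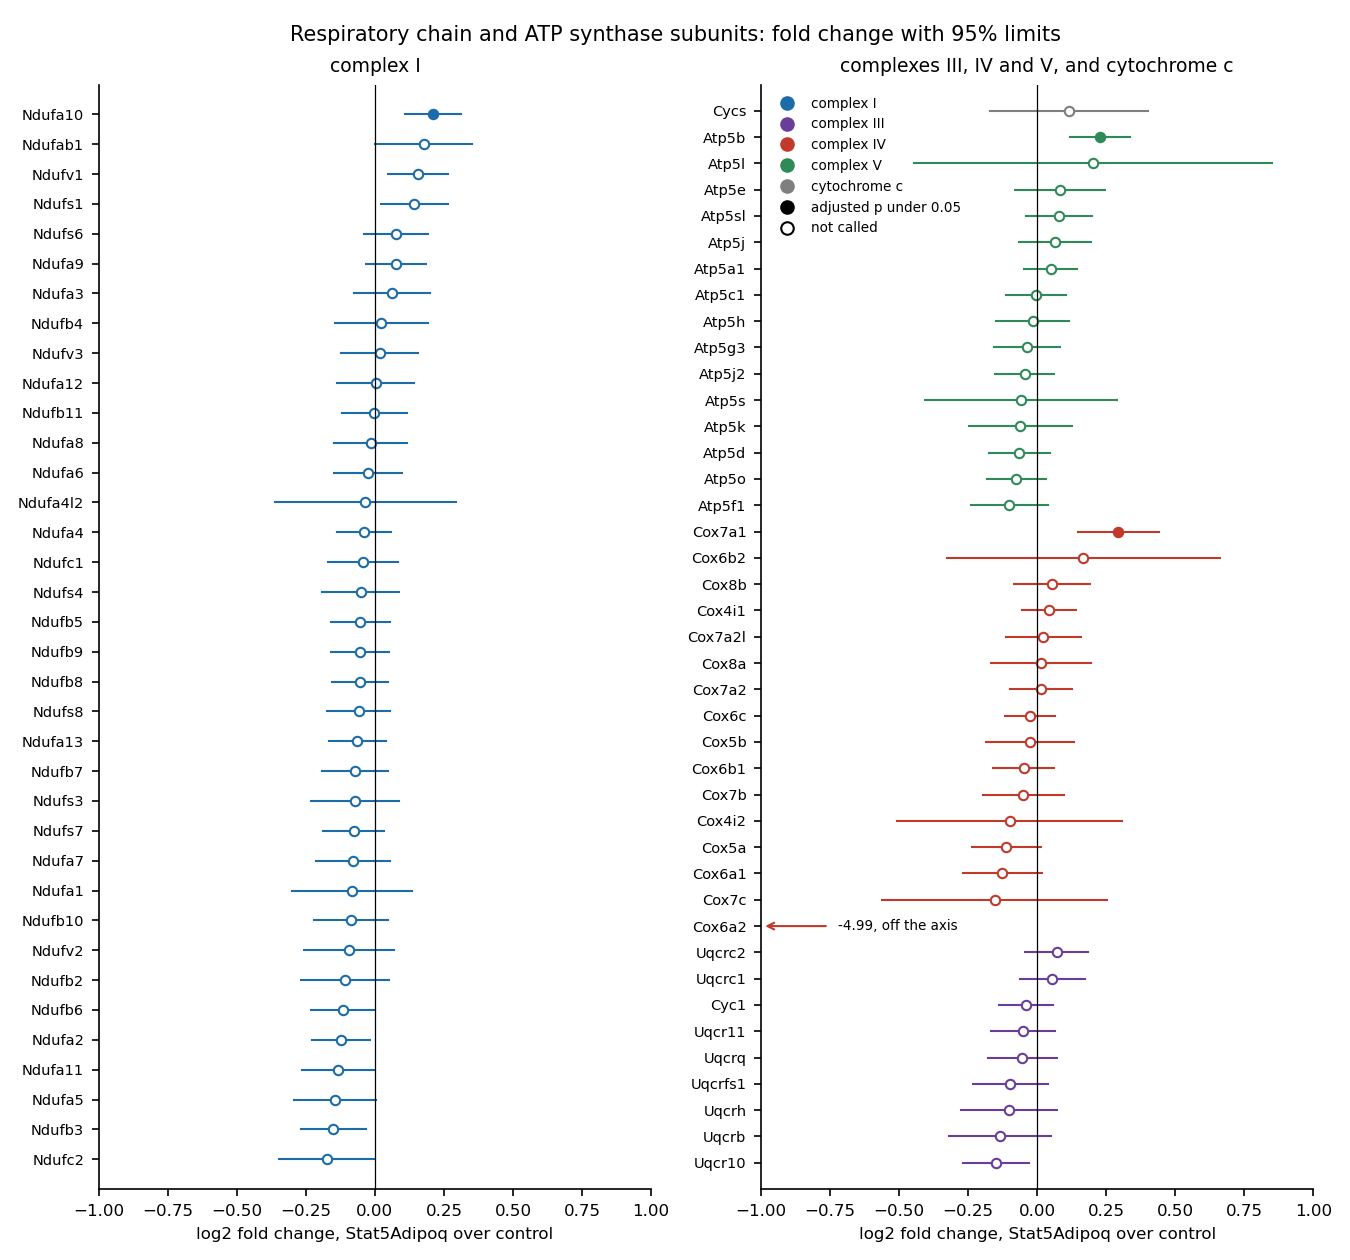
Fold change on the log2 scale (x axis) of 77 members, with 95% confidence limits from edgeR, by complex. Filled points are the 3 called members, Atp5b, Ndufa10 and Cox7a1; all others but Atp5l and Cox6a2 lie within 0.2 of 0, and Cox6a2 lies off the axis at -4.99.

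Complex IV, cytochrome c oxidase, reduces oxygen to water, and several of its subunits exist in a widely expressed form and a form of heart, muscle or other tissues. Of its 16 genes 7 lay above 0 and 9 below, with Cox7a1 the single call. Cox4i1, the most abundant by CPM, was at 1463 ± 37.5 CPM in control and 1508 ± 36.8 CPM in Stat5Adipoq BAT, and Cox5a, on the matrix side of the enzyme, at 657 ± 30.3 and 608 ± 38.9 CPM (SD, n = 5), with edgeR adjusted p values of 0.72 and 0.40. Cox6a1 was at 1317 ± 40.2 CPM in control and 1207 ± 113 CPM in Stat5Adipoq BAT (SD, n = 5; edgeR adjusted p = 0.40), where Stat5Adipoq replicate 1 was lowest at 1031 CPM. Cox6c was at 379 ± 5.24 CPM in control and 373 ± 3.51 CPM in Stat5Adipoq BAT, and Cox7b at 682 ± 20.5 and 658 ± 66.6 CPM (SD, n = 5), so that these values overlapped as well.

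Ratios between forms were taken within each library, so they do not depend on the scaling between libraries. The ratio of Cox7a1 to Cox7a2, the form found in most tissues, was 0.994, 1.01, 1.100, 0.938 and 0.995 in control and 1.13, 1.18, 1.29, 1.24 and 1.26 in Stat5Adipoq libraries. Each Stat5Adipoq library was above each control library, and the log2 ratio averaged 0.01 ± 0.08 in control and 0.28 ± 0.07 in Stat5Adipoq BAT (SD, n = 5). Cox7a2 itself was at 385 ± 16.01 and 389 ± 17.3 CPM (SD, n = 5; edgeR adjusted p = 0.94). The second pair in which the tissue-restricted form is abundant in BAT, Cox8b and Cox8a, did not part in this way: its log2 ratio was 0.48 ± 0.08 in control and 0.53 ± 0.14 in Stat5Adipoq BAT (SD, n = 5), with overlapping libraries. Cox8b was at 854 ± 53.6 and 886 ± 61.8 CPM and Cox8a at 611 ± 26.5 and 617 ± 78.6 CPM (SD, n = 5).

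For the other pairs the widely expressed form made up nearly all of the counts. The log2 ratio of Cox4i2, known from lung, to Cox4i1 was -8.56 ± 0.28 in control and -8.72 ± 0.30 in Stat5Adipoq BAT, and that of Cox6b2, known from testis, to Cox6b1 was -8.26 ± 0.43 and -8.05 ± 0.36 (SD, n = 5). Cox6b1 was at 1134 ± 35.03 CPM in control and 1097 ± 54.3 CPM in Stat5Adipoq BAT (SD, n = 5).

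Cox6a2, the form of subunit 6a of heart and skeletal muscle, had the most extreme fold change of all members and was not called. It was at 0.191, 0.091, 13.7, 0.101 and 1.74 CPM in control and at 0.252, 0, 0, 0 and 0.160 CPM in Stat5Adipoq libraries. Control replicates 3 and 5 were high, and the other libraries of both genotypes covered the same range near 0. The log2 fold change was -4.99 (standard error 1.596, edgeR adjusted p = 0.14), and with the skeletal muscle score as a covariate it was -0.73 (edgeR adjusted p = 0.74). The same 2 libraries, control replicates 3 and 5, had the highest muscle marker sums, and 14 of the 15 muscle markers had a log2 fold change below 0, with a median of -5.55 and 0 called.

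**Figure D3:**
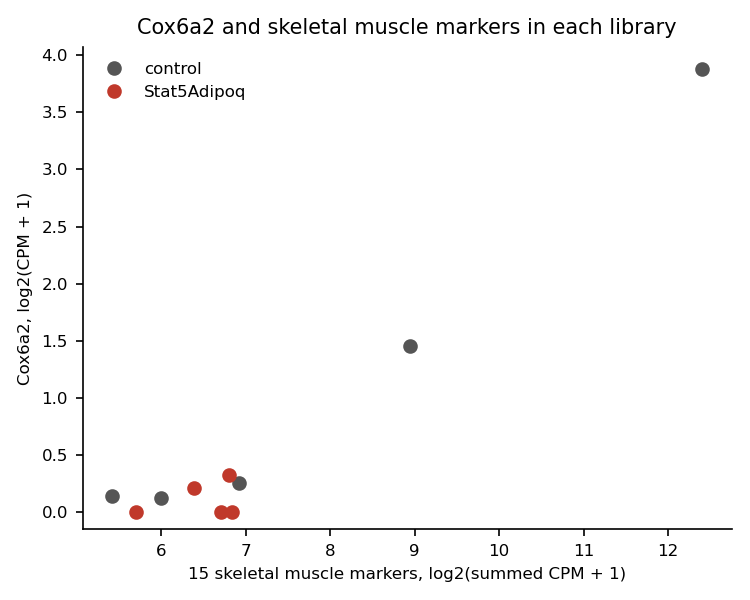
Cox6a2 (y axis) against the sum of 15 skeletal muscle markers (x axis) in each library, both as log2(CPM + 1). The 2 control libraries with 13.7 and 1.74 CPM of Cox6a2 are those with 5425 and 491 CPM of muscle markers, and the other 8 libraries lie together near 0.

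Complex V, ATP synthase, consists of the F1 head, the membrane ring and the stalks that join them. Of its 15 genes 6 lay above 0 and 9 below, with a median of -0.02 and Atp5b the single call. The peripheral stalk subunits Atp5f1 and Atp5o were at 432 ± 39.2 and 542 ± 25.3 CPM in control and at 403 ± 14.4 and 514 ± 14.7 CPM in Stat5Adipoq BAT (SD, n = 5), with edgeR adjusted p values of 0.50 and 0.53. The other subunits of the F1 head were not called: Atp5c1, the central shaft, was at 528 ± 9.52 and 526 ± 27.5 CPM, Atp5d at 727 ± 29.3 and 696 ± 30.1 CPM, and Atp5e at 294 ± 10.4 and 311 ± 35.8 CPM (SD, n = 5), all with overlapping libraries. Atp5b was thus the 1 of 5 subunits of the F1 head that passed the test.
Of the 3 genes for the c subunit of the ring, Atp5g3 was at 200 ± 8.39 CPM in control and 195 ± 10.5 CPM in Stat5Adipoq BAT (SD, n = 5; edgeR adjusted p = 0.82).
Atp5g1 and Atp5g2 were below the filter, with 0 to 4 and 2 to 9 counts per library. Both are known to have close copies elsewhere in the genome, so these counts are given as listed and not as levels.

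Summed over its 15 genes, complex V was at 15252, 15051, 15814, 15231 and 14974 CPM in control and at 15806, 16168, 16676, 17013 and 16692 CPM in Stat5Adipoq libraries. Control replicate 3 and Stat5Adipoq replicate 1 overlapped, and the ratio of the means was 1.08. Atp5b alone made up 45.5% of this sum. Without it complex V was at 8617 ± 240 CPM in control and 8682 ± 126 CPM in Stat5Adipoq BAT (SD, n = 5).
The sums of the other complexes differed by less than their spread. Complex I was at 13027 ± 278 and 13108 ± 195 CPM, complex III at 7751 ± 226 and 7666 ± 148 CPM, and complex IV at 8169 ± 182 and 8110 ± 424 CPM in control and Stat5Adipoq BAT (SD, n = 5). The 78 members together took 4.40 to 4.67% of the counts of a library.

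**Figure D4:**
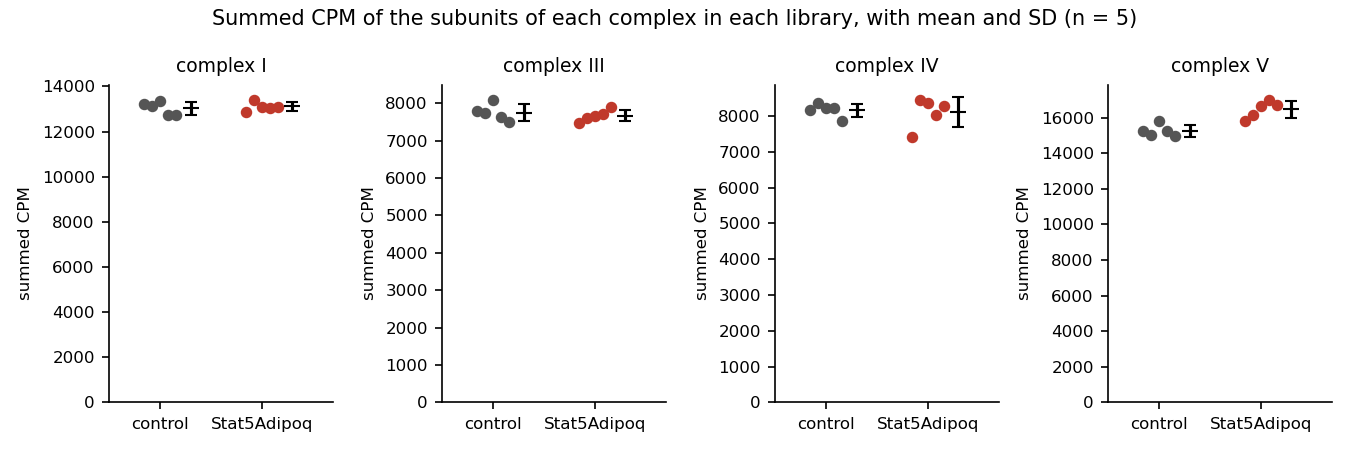
Summed CPM (y axis, from 0) of the members of complexes I, III, IV and V in each control (grey) and Stat5Adipoq (red) library, with mean and SD. Complex V averages 15265 CPM in control and 16471 CPM in Stat5Adipoq BAT, and the groups overlap for all 4 complexes.

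Over all 78 members the values were tightly grouped. The log2 fold change lay within 0.2 of 0 for 73 members (93.6%), where this held for 70.7% of all tested genes, and the 95% confidence limits lay inside -0.5 and 0.5 for 73 members (93.6%) against 63.1% of all tested genes. Members also varied less between libraries: the SD of log2 CPM between libraries of a genotype had a median of 0.08 for members and 0.18 for all tested genes, and it was lowest for Cox6c, a small subunit of complex IV, at 0.017. Spread and confidence limits widen where counts are few, and the tested genes were not matched to the members for count level. Whether the members differ in this from genes of like level was not tested. At an unadjusted p under 0.05 there were 6 members higher (Atp5b, Ndufa10, Cox7a1, Ndufv1, Ndufs1 and Ndufab1) and 6 lower (Ndufa2, Ndufb3, Ndufa11, Ndufb6, Uqcr10 and Cox6a2), together 15.4% of members and 15.2% of all tested genes. Each direction held 7.69% of members, where 7.18% of tested genes were higher and 8.03% lower. The libraries of the genotypes did not overlap for 6 members (7.69%) against 4.39% of all tested genes.

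The median log2 fold change of the members was -0.04, with 51 of 78 (65.4%) below 0, while the median of all tested genes was -0.003 and 50.8% were below 0. The values were also compared by transcript length. The principal transcripts of the members had a median length of 849.5 bases, against 3036 bases for tested genes with a known length. Members of at most 600 bases had a median of -0.06 (n = 20), as did all tested genes of this length (n = 123, median -0.06). In each length class the tested genes include the members, so these medians are not independent. The 27 members above 600 and up to 1000 bases had a median of -0.048, with 23 below 0, and the 24 members above 1000 and up to 2000 bases a median of -0.047, while all tested genes of these lengths had medians of -0.023 and -0.011. In both of these classes, which hold most of the members, the median of the members thus lay lower than that of genes of like length. The 7 members above 2000 bases had a median of 0.12. Across the 78 members Spearman's rho between length and log2 fold change was 0.28, a description over genes that share the same 10 libraries; over 13088 tested genes it was 0.02. With the trends of each library with length and GC content removed, the median of the members was 0.01 and the calls were Atp5b, Ndufa10, Cox7a1 and Ndufv1. The part of transcript length in the shift of the members was not tested further.

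**Figure D5:**
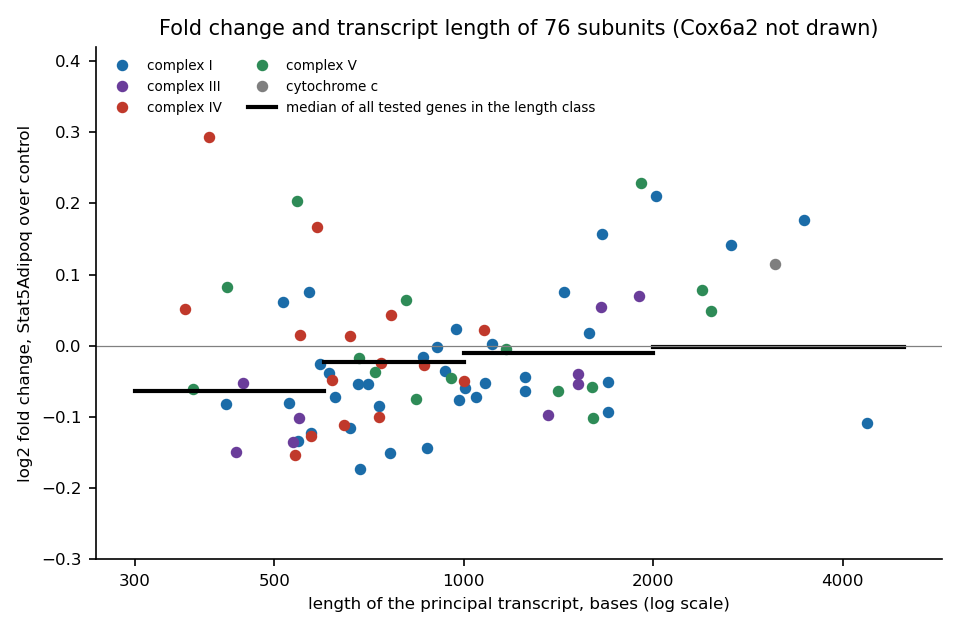
Fold change on the log2 scale (y axis) against the length of the principal transcript in bases (x axis, log scale) for 76 members, with the median of all tested genes in 4 length classes as black lines. Members of at most 600 bases and all tested genes of that length have medians of -0.06, members between 600 and 2000 bases have medians below the lines, and 6 of the 7 members above 2000 bases lie above 0; Cox6a2 is not drawn.

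Levels were compared between genes per length, as CPM per kilobase of the principal transcript. Atp5b was highest at 3767, followed by Cox8b at 2416, Cox6a1 at 2210, Atp5a1 at 1969, Cox4i1 at 1941 and Cox6b1 at 1805 CPM per kilobase. Median levels were 327 for complex I, 831 for complex III, 628 for complex IV and 452 CPM per kilobase for complex V.
Some subunits known from all tissues had very few counts. Cox7c and Atp5l, of complexes IV and V, were at 5.41 and 2.45 CPM per kilobase. The complex I genes Ndufs5 and Ndufb1 are not among the members: Ndufs5 had 0 or 1 counts in each library, and Ndufb1 was not among the counted genes. In Cox7c 53.0%, and in Atp5l 68.5%, of the 50-base words of the transcript also occur in transcripts of other genes (reads of 50 bases from such words cannot be assigned to a single gene by their sequence). Such other genes can lie elsewhere or overlap at the same place. Exons of other genes on the same strand covered 12.3% of the exon bases of Atp5o. In all, 7 members had more than 35% of such words and 43 had none, and the rho between this share and the mean CPM was -0.32 over 78 members. A high share did not always go with few counts: among these 7, Atp5h (47.9%), Uqcrb (43.2%), Ndufs3 (35.8%) and Atp5o (35.5%) were at 135, 143, 181 and 528 CPM on average. The other 3 members under 5 CPM, Cox4i2, Cox6a2 and Cox6b2, are forms of other tissues and had no shared words. Levels of genes with a high share are uncertain, and the fold changes of Cox7c (-0.15) and Atp5l (0.20) rest on few counts.

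Genes around these complexes gave no further calls. All 4 subunits of complex II, which oxidises succinate, were tested and none was called: Sdha, its flavoprotein, was at 3357, 3483, 3480, 3526 and 3486 CPM in control and at 3795, 3877, 3780, 3880 and 4079 CPM in Stat5Adipoq libraries. These groups did not overlap, and the log2 fold change of 0.16 had an adjusted p of 0.088 by edgeR and 0.00049 by DESeq2. Of 43 assembly factors tested 0 were called, with 22 above 0 and 21 below, and the lowest p was that of Uqcc1, an assembly factor of complex III (log2 fold change 0.18, edgeR adjusted p = 0.18). Of 17 regulators of mitochondrial biogenesis 0 were called, with 11 above 0 and 6 below; Gabpa, a subunit of the ETS factor GABP, had the lowest p (log2 fold change 0.20, edgeR adjusted p = 0.14).
The 11 brown adipocyte markers had 0 calls too, and their sum ranged from 20482 to 31252 CPM in control and from 22146 to 27747 CPM in Stat5Adipoq libraries. Markers of macrophages (0 of 10), endothelium (0 of 8) and fibroblasts (0 of 8) were not called. All 8 endothelial markers had a log2 fold change above 0, and their sum was 929 to 1034 CPM in control and 954 to 1191 CPM in Stat5Adipoq libraries. Its part in the values of the subunits was not tested.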

How the data were processed

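RNA-Seq libraries of BAT from 5 control and 5 Stat5Adipoq mice were grouped by the sample labels. The authors aligned single-end reads of 50 bases to GRCm38 with STAR 2.5.0b, counted them over exons with featureCounts 1.5.0-p1 and deposited raw counts per Entrez gene. Whether counting used the strand is not given in the sources used here. From the authors' deposited table of their DESeq2 1.16.1 comparison, which also holds means, fold changes and p-values that were not used, only symbols and identifiers were read, and subsets of it were left out.

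Genes with a size factor normalized row sum above 45 were kept. The genotypes were compared with edgeR 4.0.16 (R 4.3.3) by the quasi-likelihood test with TMM and no covariate, adjusted by Benjamini-Hochberg over all 13568 genes at a threshold of 0.05. 5 libraries against 5 give an exact two-sided permutation p of 0.00794 at the lowest. The procedure was tested on simulated counts. At 8488129 to 19514904 counts per library, genes with few counts have wide confidence limits. No pair of libraries held the same counts within sampling noise. Lengths are those of the principal transcripts of GENCODE M21, known for 78 members and 96.5% of tested genes. Among transcripts of equal rank the longest was taken, so lengths and levels per kilobase depend on this choice.

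Alternatives were DESeq2 1.42.0, its size factors, library size only, filterByExpr, no filter, limma-voom (limma 3.58.1), a replicate block, a muscle score, removal of length and GC trends, a threshold of 0.01 and leaving out each library. Leaving out control replicates 3 and 5 was added after the data were seen. Members, lists and tests were chosen with earlier results of these data known. Named in the text are called members, the 3 members with the lowest p and the most abundant of each complex, Cycs, the pairs of isoforms, the c subunit genes, and the gene with the lowest p of each other list; further members were named after their values were seen. Some Atp5 genes listed under other names were not caught by the rule. The values of 1 member are not reported here.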

Additional observations from a re-analysis of the deposited data

Results flagged for a closer look

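In 98 sets of 5 libraries, each 1 gene or marker sum in 1 genotype, 9 had a library farther from the rest than Dixon's test allows, where chance gives about 4.9. Among members, Atp5f1 was at 501 CPM in control replicate 3, while the remaining control libraries held 403 to 424 CPM. Cox6a2 was at 13.7 CPM in control replicate 3, against 0.091 to 1.74 CPM. Cox7a2 was at 413 CPM in control replicate 4, against 376 to 382 CPM. Uqcrc1 was at 1667 CPM in Stat5Adipoq replicate 3, against 1814 to 1870 CPM. Outside the members, Stat5a was at 20.7 CPM in Stat5Adipoq replicate 1, against 15.8 to 16.6 CPM, and Sdha at 3357 CPM in control replicate 1, against 3480 to 3526 CPM. The skeletal muscle markers summed to 5425 CPM in control replicate 3, against 41.8 to 491 CPM. The macrophage markers summed to 219 CPM in control replicate 4, against 167 to 175 CPM, and to 145 CPM in Stat5Adipoq replicate 3, against 174 to 183 CPM.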

How the results depend on the processing

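All 3 calls were kept with DESeq2 and with length and GC trends removed (4 members called each). They were also kept with DESeq2 size factors, filterByExpr and limma-voom (3 each). The calls changed with the other alternatives. With library size only 2 members were called, and Ndufa10 was lost (edgeR adjusted p = 0.063). Without a filter and with the replicate block 1 was called. With the muscle score, without control replicates 3 and 5, and at a threshold of 0.01, 0 were called. When 1 library was left out, 0 to 3 were called. Fold changes of Atp5b (0.21 to 0.26), Ndufa10 (0.19 to 0.24) and Cox7a1 (0.25 to 0.36) kept their sign in 20 of 20 fits. No member was called lower in any fit. Over all genes, DESeq2 called 660, and fits without 1 library 185 to 443. With length and GC trends removed, the median was 0.011 for all members, 0.0016 for complex I, -0.015 for complex III and 0.029 for complex V. Without 1 library the complex V median ranged from -0.031 to 0.017. Some values near 0 changed sign, none of them called: Atp5g3 with the muscle score (0.0050) and without length and GC trends (0.012), Cox4i2 with the muscle score (0.043) and without control replicates 3 and 5 (0.041), Cox6b1 without length and GC trends (0.0011), Cox7a2 with library size only (-0.0073), the muscle score (-0.0089) and without control replicates 3 and 5 (-0.0067), and Cox8a likewise (-0.0071, -0.042 and -0.024). With 1 library left out Cox7a2 ranged from -0.0082 to 0.038 and Cox8a from -0.028 to 0.081. Where a library is left out fewer samples are tested; other causes were not tested. Replicate numbers gave no sign of pairing: deviations of same-numbered libraries correlated from -0.23 to 0.09, and 2 of 10 libraries correlated best with their own number. Pairing in another order, such as by litter, was not tested. With the block 273 genes were called, against 368. Cox6a2 fell below the filter without control replicate 3. Genes with few counts or shared sequence limit what these reads can show.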
